A study of Mus musculus with 2 samples.

Results

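The beta-2 integrin genes of mouse macrophages and Gdpd3, a gene of the same stretch of chromosome 7, are described here in 2 RNA-seq libraries. The 6 genes are Itgam (CD11b), Itgal (CD11a), Itgax (CD11c), Itgad (CD11d), Itgb2 (CD18) and Gdpd3, taken by symbol from 16218 genes. Gdpd3, Itgax and Itgad were selected on their measured differences between these libraries, so those differences are given as a description and support nothing. The cells were macrophages grown from C57BL/6J bone marrow for 5 days with 10% serum and 10% supernatant of L929 cells, a source of macrophage colony-stimulating factor. All were then given 10 ng/ml lipopolysaccharide (LPS) for 3 h, and polyadenylated RNA was sequenced. The WT library came from mice carrying Lyz2-Cre. The TKO library came from mice with the same Cre and a floxed mir-17~92 on both alleles, which also lacked mir-106a~363 and mir-106b~25. Lyz2-Cre recombines in myeloid cells, so mir-17~92 is removed only where the Cre has acted, while the other deletions are carried by every cell. Each genotype had 1 library, the labels do not state how many mice it came from, and no unstimulated library was analysed here. Every difference therefore compares 2 libraries, has no replicate check and carries no p-value of this work.

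Beta-2 integrins are adhesion receptors of leukocytes, each built from 1 alpha chain (a CD11 protein) and the shared beta chain CD18. CD11a with CD18 forms LFA-1, which binds ICAM proteins on other cells. CD11b with CD18 forms the complement receptor Mac-1, and CD11c with CD18 forms a related receptor for complement fragments that is widely used as a dendritic cell marker. CD11d is the least studied alpha chain and is known from some tissue macrophages. GDPD3 is not an integrin: it is a membrane enzyme of the glycerophosphodiester phosphodiesterase family that makes lysophosphatidic acid from lysophospholipids.

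Total counts were 10764519 for WT and 10836855 for TKO. CPM (counts per 1000000) were taken over these totals, and the 11662 genes that averaged 1 CPM or more were treated as measured. Folds are ratios of CPM followed by a 95% counting interval (exact Clopper-Pearson, conditional binomial), which covers counting error only. Log2 ratios are of CPM + 0.5, which understates differences of low genes. The primary transcript of mir-17~92, Mir17hg, had 16 counts in each library, and a count over a whole host transcript does not check the deletion. Of 10 macrophage markers fixed for the check, all 10 were measured and 0 were 1.5-fold apart, with Adgre1 (F4/80) at 10003 and 9812 counts in WT and TKO.

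Itgax was the abundant member of the group that differed most. It had 291 counts in WT and 2019 in TKO, which is 27.0 and 186 CPM and 6.67 and 45.96 FPKM (fragments per kilobase of transcript and per 1000000 mapped, the authors' value). The TKO library was thus 6.89-fold higher (6.09 to 7.82), with a log2 ratio of 2.76. The counting intervals of the 2 levels were 24.0 to 30.3 CPM in WT and 178 to 195 CPM in TKO. Nothing is read from their separation, since Itgax was selected on this difference. In the authors' deposited table the log2 ratio of Itgax was 2.78 and its p-value is listed as 0. Itgax (gene 16411) lies on chromosome 7 at 128129547 to 128150657, plus strand, in GENCODE M21 on GRCm38, with 30 exons in its longest coding transcript. The gene before it on the chromosome, Itgam, ends 11 kb upstream and had nearly equal levels in both libraries.

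Because these adjacent genes differed so unequally, the sequences around their start sites are shown, with that of Gdpd3. They are the RefSeq promoter windows of GRCm38.p6, 300 bases around the start, on the plus strand of chromosome 7: chr7:128129300-128129599 for Itgax, chr7:128062390-128062689 for Itgam and chr7:126766164-126766463 for Gdpd3. Of the 6 genes, these 3 had an entry in the promoter table, and Itgad, Itgal and Itgb2 did not. Capitals mark GGAA (the core bound by PU.1 and other ETS factors) and TGTGGT (the core bound by RUNX factors) on either strand, so that a match on the other strand reads as TTCC or ACCACA.
Itgax: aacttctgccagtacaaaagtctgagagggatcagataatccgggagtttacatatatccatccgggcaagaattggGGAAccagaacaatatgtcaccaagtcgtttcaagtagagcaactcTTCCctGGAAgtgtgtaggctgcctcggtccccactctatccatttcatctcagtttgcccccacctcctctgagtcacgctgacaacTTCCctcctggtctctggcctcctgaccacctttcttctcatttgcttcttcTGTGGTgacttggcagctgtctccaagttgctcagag
Itgam: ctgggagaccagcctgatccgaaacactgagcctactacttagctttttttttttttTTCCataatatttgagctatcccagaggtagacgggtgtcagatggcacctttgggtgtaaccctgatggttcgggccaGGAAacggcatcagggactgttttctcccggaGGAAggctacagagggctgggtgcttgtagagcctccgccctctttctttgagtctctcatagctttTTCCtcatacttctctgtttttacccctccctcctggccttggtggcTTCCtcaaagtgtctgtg
Gdpd3: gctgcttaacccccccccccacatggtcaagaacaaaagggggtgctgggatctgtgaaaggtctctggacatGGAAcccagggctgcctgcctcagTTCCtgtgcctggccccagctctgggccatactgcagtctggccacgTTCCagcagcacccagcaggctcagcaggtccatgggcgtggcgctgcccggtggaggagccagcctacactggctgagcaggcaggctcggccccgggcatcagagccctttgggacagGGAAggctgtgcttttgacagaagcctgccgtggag
GGAA matched 4 times in the Itgax window, 5 times in Itgam and 4 times in Gdpd3. Such matches are common: 96.0% of 32851 promoter windows hold at least 1, with a median of 3. TGTGGT matched once, in Itgax, beginning 14 bases into the transcribed side, and 16.8% of all windows hold it. The AP-1 sequence TGAGTCA also matched once, in Itgax at −56 from the start (5.2% of windows hold it). The GC box GGGCGG matched once, on the other strand of Itgam at −47 (35.7% of windows). GC content was 50% for Itgax, 50.3% for Itgam and 64.3% for Gdpd3. These matches are letters in a window and say nothing of which factor was bound.

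Itgad was found only in the TKO library. It had 0 counts in WT and 64 in TKO, or 0 and 5.91 CPM, and is listed at 0.01 FPKM (the authors' mark for 0) and 1.47 FPKM. Read against a floor of 3 counts, which is 0.279 CPM in WT, Itgad was at least 21.2-fold higher in TKO. The fitted log2 ratio of 3.68 depends on the added constant and is no bound. The authors' deposited table gives 7.20, since it divides by 0.01, with a p-value of 1.34e-19 for these 2 libraries. Itgad (gene 381924) follows Itgax on the same strand after a gap of 23.3 kb in RefSeq. The gap is smaller in GENCODE, where Itgax ends at 128150657 and Itgad spans chromosome 7, 128154376 to 128223816.

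Itgax and Itgad encode similar proteins, so it was checked how far reads could be divided between them. Of the 50-base words of the longest coding Itgax transcript, 9.61% (384 of 3997) also occur in Itgad transcripts, and 9.47% of the Itgad words (384 of 4056) occur in Itgax. The estimated counts before rounding were 63.73 for Itgad and 2019.27 for Itgax in TKO, which sum to 2083.00, and both were whole in WT. Other genes annotated across Itgad, among them a pseudogene on its own strand and antisense transcripts, bring the share of its 50-base words found in any other gene to 22.0%. Of these, Cox6a2 (1 and 4 counts) was the only one in the table, and the labels do not say whether counting used strand, so reads of Itgad and of antisense transcripts cannot be told apart. For Itgal 0 of 5173 words were shared with any gene. For Itgam 72.4% were shared with Gm49368, a gene model that runs through Itgam and has no entry here, and 0 with another integrin of the group.

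The 3 abundant beta-2 genes were close to equality. Itgam had 7062 counts in WT and 7021 in TKO (656 and 648 CPM, 138.94 and 137.26 FPKM). Its ratio was 1.01-fold lower, with an interval of 0.980 to 1.05 that includes equality, and the sign of its log2 ratio turned from −0.02 to 0.03 with TMM scaling. Itgal had 4983 and 6534 counts (463 and 603 CPM, 87.78 and 114.39 FPKM), 1.30-fold higher in TKO (1.26 to 1.35). Itgb2, on chromosome 10 at 77530252 to 77565708, had 7026 and 8406 counts (653 and 776 CPM, 227.19 and 270.1 FPKM), 1.19-fold higher (1.15 to 1.23). Both differences exceed counting error, but neither reaches 1.5-fold. The authors' deposited table gives log2 ratios of 0.38 for Itgal, 0.25 for Itgb2 and −0.02 for Itgam, with p-values of 3.08e-45, 1.02e-26 and 0.452.

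**Figure D1:**
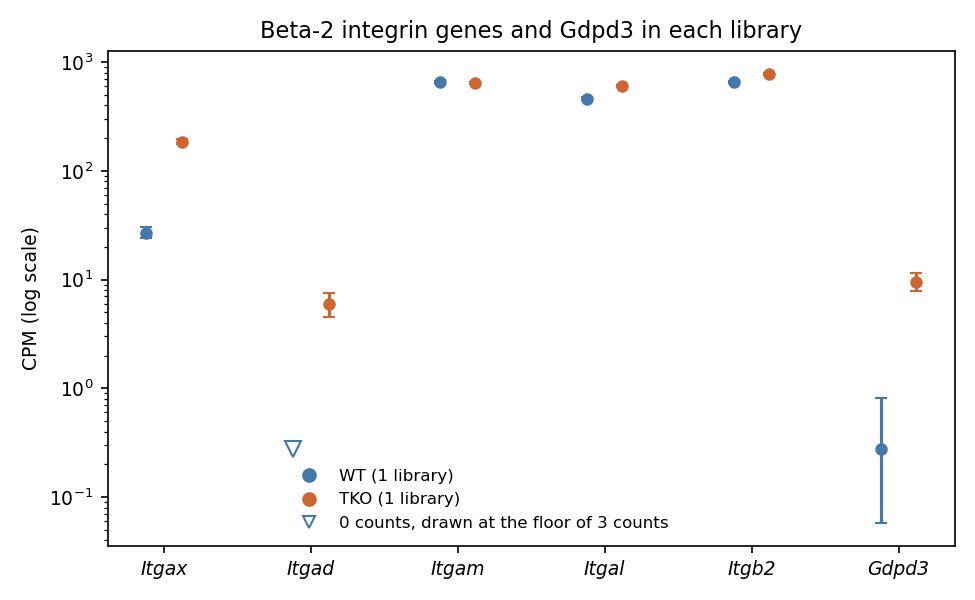
CPM of each gene (log axis) in the WT library (blue) and the TKO library (orange), 1 library each; bars are exact 95% Poisson intervals of the count, and the open triangle marks 0 counts, drawn at the floor of 3 counts. Itgax, Itgad and Gdpd3 lie far higher in TKO, while Itgam, Itgal and Itgb2 lie between 463 and 776 CPM in both libraries.

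Counting Gdpd3 (below 10 CPM in both libraries), 3 of the 6 genes had a ratio of 2 or more towards TKO and 0 towards WT. Over the whole table of 11662 measured genes, 1.02% passed that limit towards TKO and 1.68% towards WT, or 2.70% in either direction. Nothing is read from the count of 3, since these genes were chosen for that difference. Itgad and Gdpd3 also passed the abundance filter only through the TKO library.

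Levels per length allow the alpha chains to be set against one another. In both libraries the order by FPKM was Itgam, Itgal, Itgax, Itgad, and no neighbours in it had overlapping counting intervals. In WT, Itgam made up 59.5% of the summed FPKM of the 4 alpha chains, Itgal 37.6%, Itgax 2.86% and Itgad 0%. In TKO these shares were 45.9%, 38.2%, 15.4% and 0.492%. The Itgax share was thus larger in TKO and the Itgam share smaller, while the Itgal share was nearly the same. The summed alpha chain level was 233.4 FPKM in WT and 299.1 in TKO, against 227.2 and 270.1 FPKM of Itgb2, so that alpha chain mRNA per Itgb2 mRNA was 1.03 in WT and 1.11 in TKO. Messenger RNA shares do not give the shares of receptors at the cell surface, which were not measured.

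**Figure D2:**
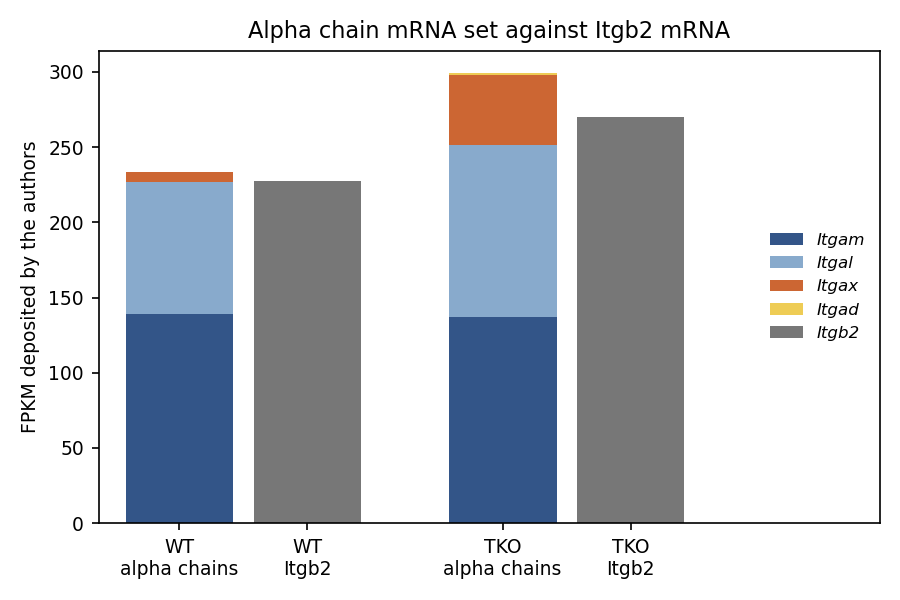
Stacked FPKM of the 4 alpha chain genes beside the FPKM of Itgb2 in each library; the authors' values have no error bars because each genotype had 1 library. The Itgax segment is 6.67 FPKM in WT and 45.96 in TKO, while the Itgam segment is 138.94 and 137.26 FPKM.

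A ratio to another gene of the same library does not depend on library scaling. Per count of Itgb2, Itgax was 5.80-fold higher in TKO (5.10 to 6.61, exact conditional interval of the odds ratio) and Itgal 1.10-fold higher (1.04 to 1.15). Itgam per count of Itgb2 had a TKO over WT ratio of 0.831 (0.794 to 0.870). Per count of Itgam, Itgax was 6.98-fold higher (6.14 to 7.95) and Itgal 1.32-fold higher (1.25 to 1.39). Itgax was selected on its difference, so its ratios are a description only. Itgam, Itgal and Itgb2 were not, and their ratios to one another departed from equality beyond counting error. With 1 library for each genotype, variation between libraries is not covered by these intervals.

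Gdpd3 was near the floor in WT and clearly counted in TKO. It had 3 counts in WT and 104 in TKO (0.279 and 9.60 CPM, 0.26 and 9.04 FPKM). The ratio was 34.4, with a wide counting interval of 11.5 to 170 because the WT library held so few counts. The authors' deposited table lists a log2 ratio of 5.12 and a p-value of 1.82e-27 for Gdpd3. Gdpd3 (gene 68616) lies on the plus strand of chromosome 7 at 126766334 to 126775649, 1363 kb before the Itgax start by RefSeq, with 10 exons in a coding transcript of 1148 bases. Of its 50-base words 13.3% occur in another gene, Gm9967, an overlapping transcript on the opposite strand with no entry here. The measured gene just before it, Mapk3 (ERK1), had 2100 and 1964 counts, 1.08-fold lower in TKO (1.01 to 1.15). The one just after it, Ypel3, had 292 and 233 counts, 1.26-fold lower (1.06 to 1.51).

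The 5 chromosome 7 members lie in a gene-dense interval, taken here with 500 kb on each side as 126266414 to 128705504 (2.44 Mb, GRCm38). It holds 104 entries, of which 85 were measured. Besides the members, 80 genes were measured there, and 0 of them were at least 2-fold apart by total-count scaling. With TMM scaling 1 was, Sephs2 (655 and 1282 counts), and with no abundance filter 1 was, Sult1a1 (10 and 2 counts). The median log2 ratio of these 80 genes was −0.04, the same as over all measured genes, and their range was −0.68 to 0.95. At 1.5-fold 2 were higher in TKO and 1 lower, beside 2.83% and 5.26% of all measured genes (8.09% in either direction). The higher ones were Sephs2, for a selenophosphate synthetase (1.94-fold, 1.77 to 2.14), and Spn, for the leukocyte sialoprotein CD43 (1.84-fold, 1.71 to 1.98). The lower one was the cytokine gene Il27 (1.60-fold, 1.44 to 1.78). Spn, Il27 and Sult1a1 were named after their values were seen.

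Itgax and Itgad are neighbours of each other, and the other measured genes next to them and to Gdpd3 were within 1.5-fold. Besides Itgam and Itgad, the measured genes nearest the Itgax start are Pycard before it and 9130023H24Rik after it. The nearest upstream of Itgam was Pycard, for the inflammasome adaptor ASC (300 and 232 counts, log2 ratio −0.37). The nearest after Itgad were 9130023H24Rik (139 and 127 counts, −0.13) and Armc5 (516 and 534 counts, 0.04). Around Gdpd3 the second neighbours were Coro1a (2062 and 2159 counts, 0.06) and Ppp4c (932 and 825 counts, −0.18). Itgal is flanked by Sephs2 and Dctpp1 (94 and 70 counts, −0.41) before it and Zfp768 (118 and 133 counts, 0.16) and Zfp747 (65 and 72 counts, 0.13) after it. Between the Gdpd3 and Itgax starts, 53 non-members were measured, with log2 ratios of −0.54 to 0.95.

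**Figure D3:**
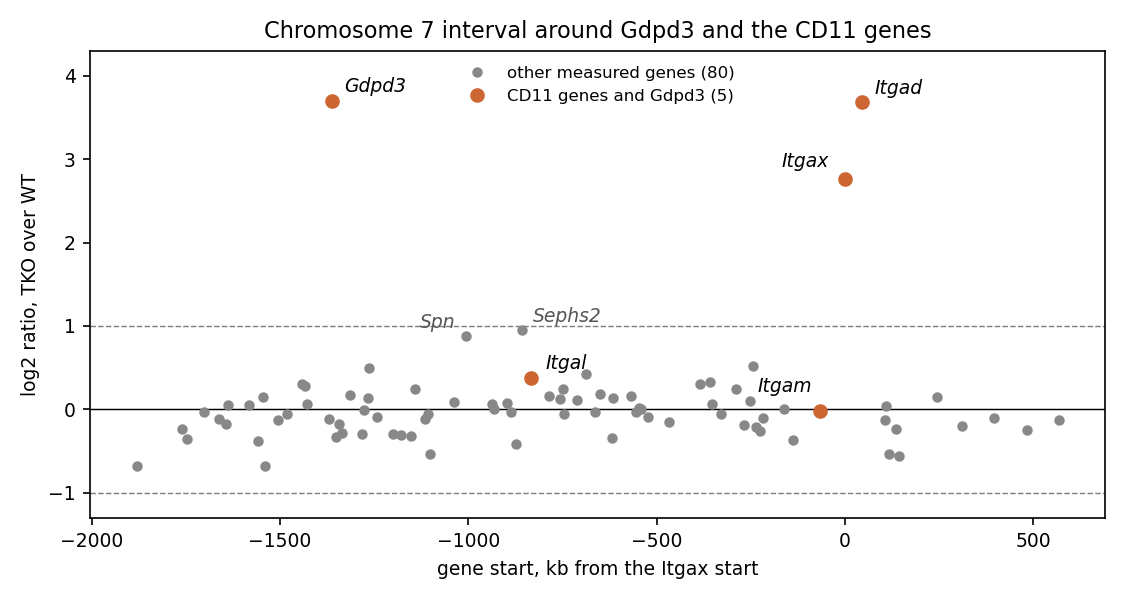
Log2 ratio of TKO over WT for the 85 measured genes of the chromosome 7 interval against the distance of each gene start from the Itgax start in kb; dashed lines mark 2-fold. Gdpd3, Itgax and Itgad stand at 2.76 to 3.70, with the other 80 genes (grey) and Itgal and Itgam between −0.68 and 0.95.

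On chromosome 7 outside the interval, of 809 measured genes 9 passed 2-fold towards TKO and 16 towards WT, and their highest log2 ratio was 1.77. In the order of log2 ratios over all 11662 measured genes, Gdpd3 was 12th, Itgad 13th and Itgax 22nd, counting from the highest in TKO. Itgal was 908th, Itgb2 1634th and Itgam 5380th. By mean FPKM, Itgax exceeded 76.9% of measured genes, Gdpd3 36.3% and Itgad 8.28%, while Itgam, Itgal and Itgb2 exceeded 95.2%, 93.4% and 97.4%.

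**Figure D4:**
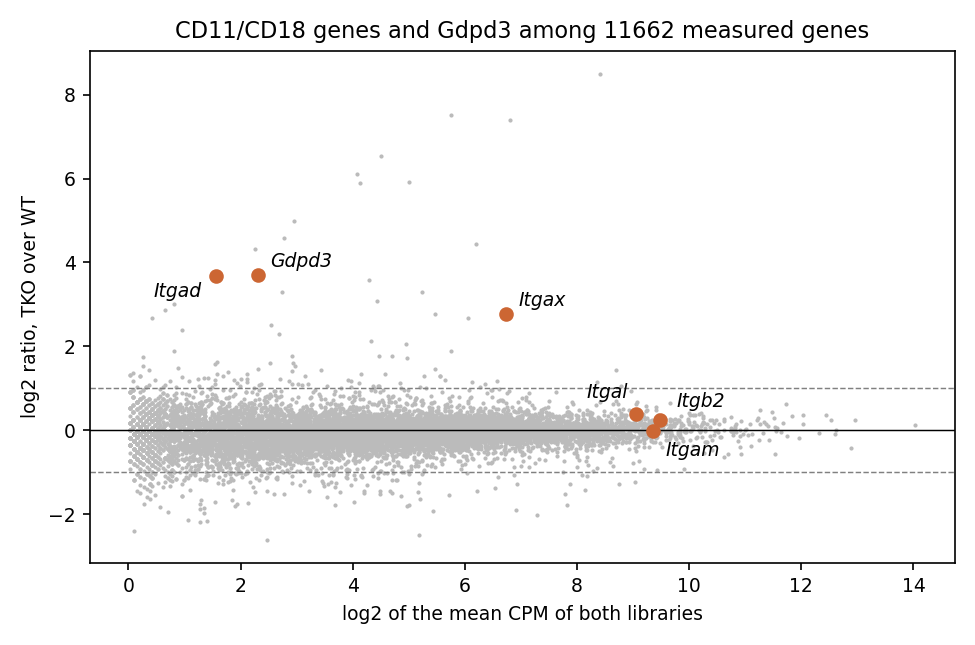
Log2 ratio of TKO over WT against the log2 of the mean CPM for 11662 measured genes (grey points, 1 per gene), with the 6 described genes in orange and dashed lines at 2-fold. Itgax, Itgad and Gdpd3 lie at 2.76 to 3.70, above the upper dashed line, and Itgam, Itgal and Itgb2 lie within the dashed lines.

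Likeness was taken as the distance between log2 ratios over these 2 libraries, among genes with a mean CPM within 2-fold. Of 2530 such genes, the nearest to Itgax were H2-Q8 (189 and 1246 counts, log2 ratio 2.68), H2-T24 (244 and 921 counts, 1.88) and Ms4a4c (621 and 1428 counts, 1.18). The first and second of these are class I genes on chromosome 17, a family of similar genes whose shared sequence was not examined here. Of 2447 genes, the nearest to Gdpd3 were Itgad (3.68), Atp6v0e2 (9 and 136 counts, 3.29) and 0610010B08Rik (0 and 103 counts, 4.32). The closeness of Gdpd3 (3.70) to Itgad depends on the added constant, as they had 3 and 0 counts in WT. With 0.1 CPM added their log2 ratios were 4.68 and 5.91, and with 1 CPM added 3.05 and 2.79. Both genes were selected on their difference, so nothing is read from this likeness.

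From the deleted clusters, 13 distinct mature microRNAs of 4 seed families were taken, and the messenger RNAs of the group were searched for their sites. Mature microRNAs from the opposite arms of the same precursors were not searched. A microRNA pairs with a messenger RNA mainly through its seed, bases 2 to 8, in capitals below in 1 RefSeq sequence for each family.
miR-17-5p: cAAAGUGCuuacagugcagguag
miR-18a-5p: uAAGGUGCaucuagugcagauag
miR-19a-3p: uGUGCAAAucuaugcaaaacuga
miR-92a-3p: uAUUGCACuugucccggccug
The matching site is GCACTTT for the miR-17 family (14.9% of genes below), GCACCTT for the miR-18 family (9.36%), TTTGCAC for the miR-19 family (13.5%) and GTGCAAT for the miR-92 family (7.66%). They were searched on the transcript strand of the longest annotated 3′ UTR of a coding transcript. Of 11161 measured genes with such a UTR, 34.2% hold at least 1 of the 4. Of the 6 genes, 1 did: Itgal has a single match, for the miR-18 family.
Itgal site: tccacgctgtGCACCTTgcaccagcct
Its match begins at base 672 of a UTR of 1528 bases and is not followed by A. None of these 4 sites was found in the UTRs of Itgax (463 bases), Itgad (329 bases), Itgam (1114 bases), Itgb2 (446 bases) or Gdpd3 (18 bases). Short UTRs leave little room for a match, and sites elsewhere in the transcript were not searched. Sites that pair with only part of the seed were not searched either.

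Other genes of integrin biology and lipid enzymes were described by list. In 7 lists, 102 distinct genes were measured, of which 5 passed 1.5-fold towards TKO and 12 towards WT, beside 2.83% and 5.26% of all measured genes. Within 1.5-fold lay 81.4% of the list genes and 90.1% of all measured genes, and the median log2 ratios were 0.01 and −0.04. Of 9 other integrin alpha chains, 0 were higher and 2 lower: Itga11, a collagen receptor chain (43 and 10 counts, 4.33-fold, 2.14 to 9.66), and Itga9 (40 and 20 counts). The most abundant was the fibronectin receptor chain Itga5, 10848 and 14217 counts, 1.30-fold higher (1.27 to 1.33). Of 5 other beta chains, Itgb7 was higher (541 and 955 counts, 1.75-fold, 1.58 to 1.95), and Itgb1, the most abundant, had 7820 and 8743 counts. Itga3, named after its values were seen, had 8 and 18 counts, a ratio of 2.23 whose interval of 0.925 to 5.94 includes equality.

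Activation of integrins from inside the cell runs through the small GTPase RAP1, talin and kindlin, which bind the beta chain tail. Of 27 measured genes of this machinery, 0 were 1.5-fold higher and 3 lower: Tln2 (57 and 22 counts), Parva (53 and 24 counts) and Fermt2 (64 and 35 counts). These 3 were scarce, and with the abundance minimum raised to 10 CPM the list had 0 lower genes. The leukocyte forms were near equality, with Tln1 at 8391 and 9225 counts and the kindlin-3 gene Fermt3 at 2027 and 2142. Both were named after their values were seen. Rap1b was the most abundant, at 437.67 and 400.31 FPKM.

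Of 25 genes that carry signals from bound integrins, 1 was higher, the kinase gene Lyn (2820 and 4563 counts, 1.61-fold, 1.53 to 1.69). Src (2113 and 1324 counts, 1.61-fold, 1.5 to 1.72) and the adaptor gene Bcar1 (50 and 30 counts) were lower. Fcer1g, an adaptor with an immunoreceptor tyrosine-based activation motif, was the most abundant, at 1096.23 and 963.06 FPKM. Of 8 measured ligand genes, C3, the source of the fragment iC3b bound by Mac-1, was 1.60-fold higher (1.54 to 1.66), Icam5 had 36 and 60 counts, and Vcam1 (646 and 386 counts) and Hp (97 and 62 counts) were lower. Icam1, the main LFA-1 ligand, had 32397 and 32462 counts, a ratio within counting error of equality. Hp was named after its values were seen. With TMM or median-of-ratios scaling 2 signal genes were higher in place of 1, and 1 ligand gene was lower in place of 2.

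Of 13 measured factors known at myeloid integrin promoters or in myeloid differentiation, 1 was 1.5-fold higher, the repressor gene Gfi1 (167 and 320 counts, 1.90-fold, 1.57 to 2.31). By the same limit 0 were lower. Smaller differences went both ways: the log2 ratio was above 0 for 6 of the 13, with a median of −0.04 and a lowest value of −0.56. Below 1.5-fold, Irf8 (1084 and 740 counts), Runx1 (739 and 531) and Cebpb (3869 and 2800) were lower beyond counting error, as was Sp3. Irf8, Runx1, Cebpb and Sp3 were named after their values were seen. Spi1, which encodes PU.1, was the most abundant, at 7588 and 8327 counts. It was the only factor below 1.5-fold that was higher beyond counting error (1.06 to 1.12). Of 15 genes of the GDPD family and related lipid enzymes, 0 were higher and 3 lower: Enpp2 (33 and 18 counts), Naaa (542 and 353 counts) and Pla2g4a (732 and 481 counts). With TMM scaling 0 of the list were lower and with median-of-ratios scaling 1. Gdpd1, the closest in function to Gdpd3, had 422 and 565 counts, 1.33-fold higher (1.17 to 1.51), and was named after its values were seen. The most abundant of this list was Lpcat2, at 37.03 and 50.53 FPKM.

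**Figure D5:**
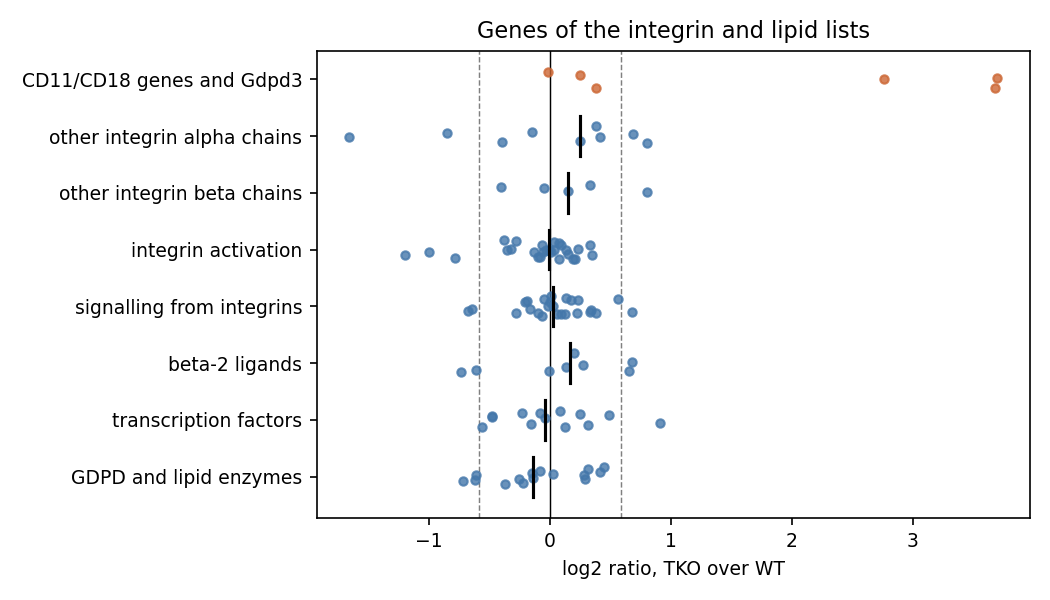
Log2 ratios of TKO over WT for the 6 described genes (orange) and the measured genes of 7 lists (blue points, 1 per gene, spread vertically at random), with black bars at each list's median and dashed lines at 1.5-fold. List genes lie between −1.66 and 0.91, while Itgax, Itgad and Gdpd3 lie at 2.76 and above.

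Since CD11c marks dendritic cells, markers of other cells are given beside Itgax. Of 17 dendritic cell markers 9 were measured. The summed level of all 17 was 103 CPM in WT and 87.3 CPM in TKO, of which Fscn1 alone gave 63.2 and 47.6 CPM. The log2 ratio was above 0 for 6 of the 9, with a median of 0.29. Ly75 had 61 and 94 counts. Of the 9, H2-DMb2 was higher (3 and 39 counts, a class II chaperone gene) and Cacnb3 lower (182 and 72 counts), and with TMM or median-of-ratios scaling 2 of the 9 were higher. H2-DMb2 passed the abundance filter only through the TKO library (0.279 CPM in WT and 3.6 in TKO). Its estimated counts before rounding were fractional, 2.69 and 39.48, and its shared sequence with other genes was not examined. The defining genes were scarce in both libraries: Flt3 had 9 and 11 counts, Zbtb46 5 and 12, Clec9a 0 and 2, Cd209a 1 and 0, and Ccr7 17 and 26. Xcr1 had 84 and 90 counts. Neutrophil markers (7 of 12 measured) summed to 123 and 121 CPM over the 11 with an entry, with Ly6g at 0 and 1 counts. Csf3r alone gave 85.6 and 80.7 CPM of these sums. At 1.5-fold 0 neutrophil markers were higher, and S100a9 was lower (21 and 8 counts, 2.64-fold, 1.12 to 6.9). T and NK cell markers (4 of 12 measured) summed to 12.9 and 10.4 CPM over the 7 with an entry. The most abundant was Cd3d (53 and 48 counts). At 1.5-fold 0 of them were higher, and Lck was lower (32 and 10 counts, 3.22-fold, 1.55 to 7.35). B cell markers (0 of 7 measured) summed to 1.49 and 1.02 CPM over the 5 with an entry. The part of any of these cells in the values of Itgax, Itgad and Gdpd3 was not tested. In bulk RNA, more cells that express a gene and more RNA per cell cannot be told apart.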

How the data were processed

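Polyadenylated RNA was measured in 1 WT and 1 TKO library, grouped by their titles. The submitters' processing notes name HISAT2 2.0.4, Bowtie2 2.2.5, RSEM 1.2.12 and build mm10, without roles. The authors deposited 1 table with estimated counts, FPKM (0.01 for 0), a log2 ratio of FPKM, a p-value and an adjusted value, used here as a score because it exceeds 1 and not printed, per the file headers. Their test is not given in the sources used here. Of 16219 entries 1 without a symbol was left out. Estimated counts were rounded, which could matter only for low genes. The deposited gene length, in bases, served only a recomputation of shares.

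CPM, log2 ratios with 0.5 CPM added, and exact Clopper-Pearson intervals were computed in Python 3.11.15 with scipy 1.17.1. Calls needed 2-fold (lists: 1.5-fold), an interval excluding equality and a mean of at least 1 CPM. With 1 library a group there was no test. The calls were tested on simulated data that held counting error only. That simulation had no variation between libraries, so it does not show how the calls behave under such variation. TMM factors came from edgeR 4.0.16 and median-of-ratios factors from DESeq2 1.42.0. Positions came from GENCODE M21 and, for the interval, from RefSeq (GRCm38.p6, 16179 identifiers found), the same assembly as mm10. Protein sequences were not used here.

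The genes, lists and interval were chosen with earlier results of these data known. Named genes are the 6 members, the 2 measured neighbours on each side of each chromosome 7 member, interval genes at least 2-fold apart, and in each list the 3 farthest genes among those 1.5-fold apart and the most abundant by FPKM. All markers could be named. One neighbouring gene is not reported here. Mir17hg and Cox6a2 were chosen after their values were seen. Alternatives were scaling, added constant, abundance filter, unrounded counts, deposited FPKM, word length and site length.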

Additional observations from a re-analysis of the deposited data

How the results depend on the processing

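No paired analysis was possible because each genotype had 1 library. With each of 6 alternatives, Itgax, Itgad, Itgal, Itgb2 and Gdpd3 stayed above equality, and Itgax ranged from 2.70 to 2.81 (log2). A changed added constant cannot alter which library is higher. Itgax, Itgad and Gdpd3 were also selected on their difference, so nothing is read from their staying above equality. Itgad was 3.70 with TMM or median-of-ratios scaling, 5.91 with 0.1 CPM added, 2.79 with 1 CPM added and 1.98 from the deposited FPKM with 0.5 added. Gdpd3 was 4.68 with 0.1 CPM added. TMM scaling gave 0.03 for Itgam and 0.30 for Itgb2. At a minimum mean of 10 CPM, 49 genes were at least 2-fold higher and 72 lower over the whole table (119 and 196 as reported), 1 interval gene was higher, and 4 pathway genes were 1.5-fold lower (12 as reported). Lower genes numbered 126 with 1 CPM added and 106 with FPKM. With no filter 1 interval gene was at least 2-fold lower, and 1 non-member was 2-fold apart with TMM scaling and 1 with no filter. Words of 25 bases shared with another member were 13.9% for Itgax and 13.7% for Itgad. No member held an 8-base site (0, against 1 for 7 bases). Counts of single lists stayed within 1.5 times in 146 of 168 alternatives. The 146 include list counts that were 0 as reported and in every alternative. Among these are both counts of the B cell list, which had no measured gene, so the share overstates stability. The WT depth limits Itgad and Gdpd3, at 0 and 3 counts. The causes of these shifts were not tested.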
